A study of Caenorhabditis elegans with 4 samples.

Results

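The NHR-11 peaks of chromosome IV in Caenorhabditis elegans first-stage larvae are described here. They comprise every peak of the series list that is placed on chromosome IV, 293 of 3006 peaks. The same chromosome held 75 of 1247 peaks in the replicate 1 list and 68 of 1190 in the replicate 2 list. Binding was mapped by chromatin immunoprecipitation and sequencing (ChIP-seq) with antibodies against GFP, in 2 ChIP libraries, with 2 input libraries that had no values of their own here. All 4 libraries came from hermaphrodites of strain OP305, which carries the unc119(ed3) mutation and the array wgIs305, at the stage labelled L1 26dC, grown at 20 °C and fixed with 2% formaldehyde. The strain was made by bombardment with a recombineered plasmid, so the immunoprecipitated NHR-11, with its TY1, EGFP and FLAG tags, comes from a transgene that also carries unc119, and the labels list no mutation of the resident nhr-11 gene. Whole larvae were used, so no peak can be assigned to a cell type. The labels do not say whether the replicates were separate cultures, and there was no group without the transgene.

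NHR-11 belongs to the nuclear hormone receptors, transcription factors that bind DNA through a zinc-finger domain and that in many members respond to small lipophilic ligands. The family is greatly expanded in nematodes. A ChIP-seq peak marks a stretch of DNA that was recovered with the tagged factor more than the control predicts, either because the factor touches that DNA or because it is held there by other proteins. C. elegans autosomes have gene-rich centres and more repetitive, more recombining arms. Chromosome IV is known for the loci of 21U-RNAs, the piRNAs of the worm, which lie there in broad clusters.

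Peak height is given as −log10 of the authors' score, read here as a q-value. A height of 3 thus corresponds to q = 0.001, the limit of the lists. Besides enrichment, the number of reads and the width of a peak enter a q-value, and heights are read within a list. Read depth is unknown. Exact 95% intervals (Clopper-Pearson) cover counting error only, and they take each peak as a separate draw although neighbours may not be. Positions are on build WS220, counted from 1.

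Chromosome IV was sparsely occupied in every list. The series list held 16.8 peaks per Mb on IV, while the other chromosomes ran from 29.4 on V to 42.4 on III. Replicate 1 held 4.30 peaks per Mb on IV against 11.7 to 18.8 on the others. Replicate 2 held 3.90 against 11.6 to 18.6. Chromosome IV thus had the lowest density of the 6 chromosomes in all 3 lists. Over the replicate lists the mean was 4.10 ± 0.284 peaks per Mb on IV and 13.9 ± 0.428 elsewhere (SD, n = 2). The exact permutation test, with both values swapped within a list, gave a two-sided p of 0.5, the smallest that 2 lists allow, so no difference can pass 0.05 in this design.

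**Figure D1:**
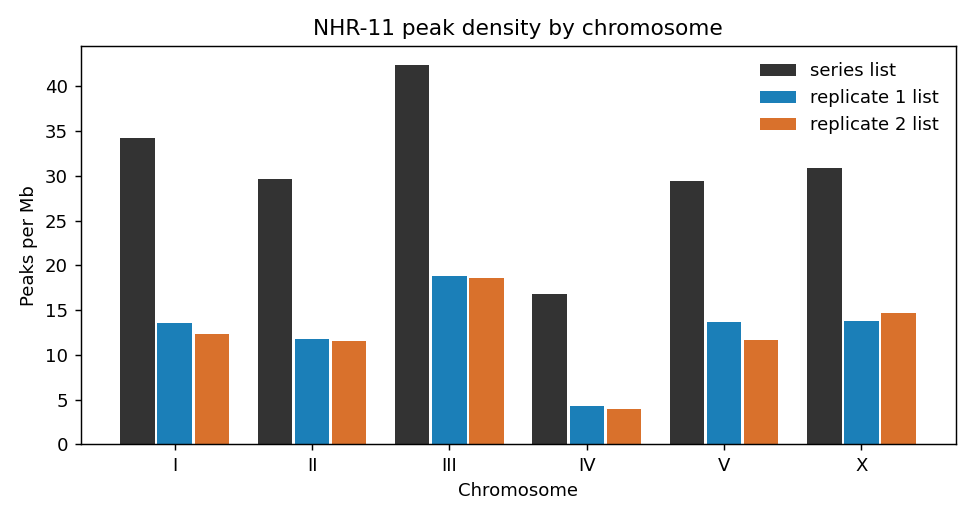
Peaks per Mb (vertical axis) on each of the 6 chromosomes in the series list and both replicate lists, 1 bar per list. On IV the bars reach 16.8, 4.30 and 3.90 peaks per Mb and are the lowest of their list.

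Set against gene number, the order was similar. A gene table of assembly WBcel235 places 3281 protein-coding genes on IV, 16.4% of those on the 6 chromosomes. Per 100 protein-coding genes, IV had 8.93 series peaks, against 12.3 on V and 22.1 on III, the ends of the range for the other chromosomes. Replicate 1 gave 2.29 on IV and 7.02 elsewhere, and replicate 2 gave 2.07 and 6.72. Of the 19704 genes the table places on IV, 14714 are piRNA loci (74.7%), so the count of all genes there is mostly a count of piRNA loci.

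The sparseness on IV was deeper in the replicate lists than in the series list. Density on IV divided by density elsewhere was 0.304 in replicate 1, 0.287 in replicate 2 and 0.512 in the series list. Put the other way, IV had 4.10 times as many series peaks as the replicate mean of 71.5 ± 4.95 (SD, n = 2). Elsewhere the series list was 2.37 times the replicate mean, with 2.17 on X and 2.64 on I as the ends of the range.

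Few peaks were placed on IV at any height. The chromosome makes up 17.4% of the length analysed. It held 8 of the 100 highest series peaks (8%, exact interval 3.52 to 15.2%), 49 of the next 400 and 56 of the next 500. Farther down it held 99 of the next 1000 and 81 of the last 1006 (8.05%, 6.45 to 9.91%). In replicate 1 it held 6 of the 100 highest, 24 of the next 400, 33 of the next 500 and 12 of the last 247. The matching counts in replicate 2 were 5, 29, 23 and 11 of the last 190. In each of these bands of the 3 lists, the share on IV was below 17.4%. This was not tested over peaks, and IV was chosen with earlier results of these data known.

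Along the chromosome, most windows of 500 kb held few peaks, and the stretches that were empty in one replicate list were mostly empty in the other. In the series list the 34 full windows held a median of 8 peaks (3 to 21), against 16 (1 to 35) in the 163 windows elsewhere. In replicate 1 the median was 2 (0 to 5) against 7 (0 to 17), and in replicate 2 it was 2 (0 to 6) against 6 (0 to 19). Windows with no peak numbered 4 of 34 on IV and 2 of 163 elsewhere in replicate 1, and 6 of 34 and 3 of 163 in replicate 2. The series list had no empty window, but 11 of 34 windows on IV and 9 of 163 elsewhere held 5 peaks or fewer.

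The richest window of the series list lay at 4000001 to 4500000, with 21 peaks. It held 4 peaks in replicate 1 and 5 in replicate 2. The neighbouring window, 4500001 to 5000000, had the most replicate peaks on IV, 5 and 6, with 11 in the series list. Next to it in turn, 5000001 to 5500000 was the poorest of the series list, with 3 peaks, and held 1 in each replicate. In the series list these 3 consecutive windows thus held both the highest and the lowest count of the chromosome. A second rich window in both replicates, with 5 peaks each, was 11000001 to 11500000, where the series list had 12.

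Both replicates were empty in 4 windows, 1 to 500000, 3500001 to 4000000, 7500001 to 8000000 and 13500001 to 14000000. The series list had 5, 7, 5 and 6 peaks there. The longest stretch without a replicate peak was nearly the same in both lists. It ran from 7320540 to 8431624 in replicate 1 (1111083 bp) and from 7320435 to 8428372 in replicate 2 (1107936 bp). The series list had 17 and 16 peaks inside these stretches, with median heights of 4.56 and 4.31. Its own longest gap, from 9725761 to 10151477, was 425715 bp. Over all 35 windows, including the short last one, the counts of the replicates gave a Spearman's rho of 0.730. The series counts gave 0.341 with replicate 1 and 0.405 with replicate 2. These values describe windows of a single chromosome in lists that share peaks.

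**Figure D2:**
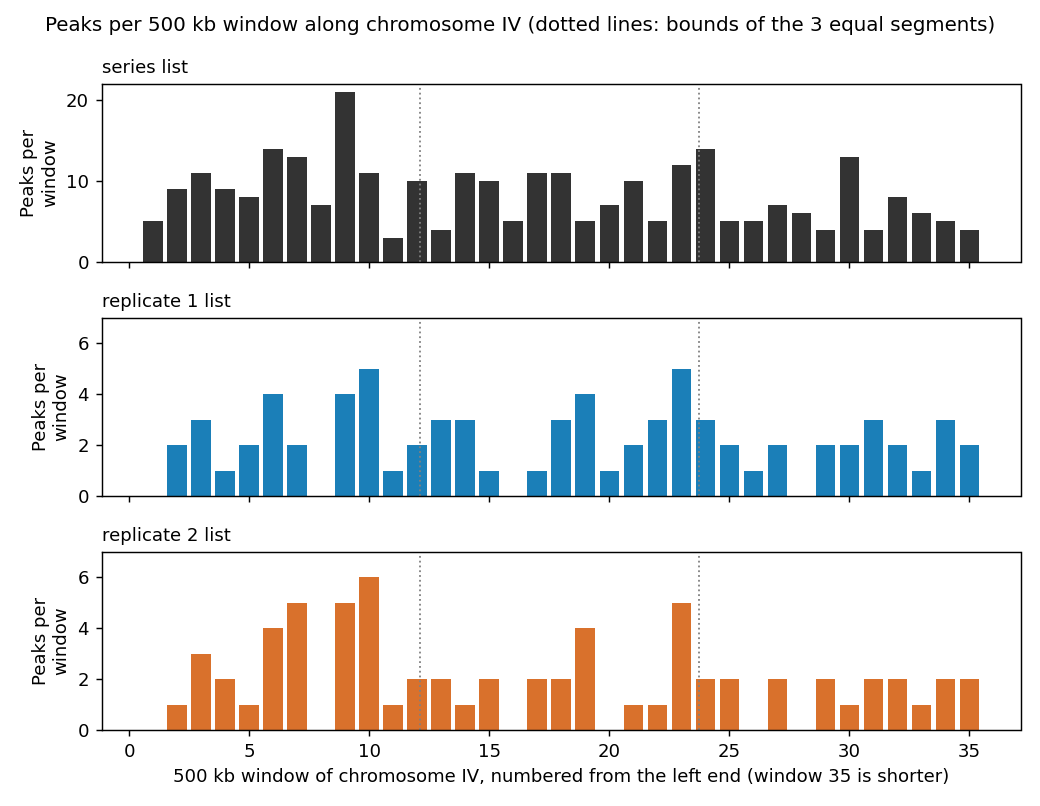
Number of peaks (vertical axis) in each 500 kb window of chromosome IV, numbered from the left end (horizontal axis), in the 3 lists, with dotted lines between the left, central and right segments. The series list peaks at 21 in window 9, and 4 windows hold series peaks but none of either replicate.

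Peaks of IV were not gathered in the centre. The chromosome was divided into 3 segments of equal length, with bounds at 5810696 and 11621391. Of the 293 series peaks, 40.6% lay in the left segment (exact interval 34.9 to 46.5%), 33.4% in the central one (98 peaks, 28.1 to 39.2%) and 25.9% in the right one (76 peaks, 21.02 to 31.4%). Replicate 1 had 26, 27 and 22 peaks in these segments, and replicate 2 had 30, 21 and 17. The left segment was the fullest in the series list and in replicate 2, but not in replicate 1. Median series height was 6.13, 5.91 and 5.27 from left to right. The highest peak of the chromosome was in the right segment and the second highest in the left.

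Series peaks on IV lay farther apart than those elsewhere. The median gap to the nearest neighbour was 11462 bp on IV and 5203 bp elsewhere, and 111 of the 293 peaks (37.9%) had a neighbour within 5 kb, against 49.4% elsewhere. Within 1 kb, 38 had a neighbour (12.97%, against 18.9% elsewhere). The median nearest gap was 54944 bp in replicate 1 and 63362 bp in replicate 2, against 15933 and 13599 bp elsewhere. Closer spacing is what a higher density gives, so these gaps restate the density at a finer scale.

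The peaks that were present had median heights and widths slightly above those of the other chromosomes pooled, while the greatest heights lay on other chromosomes. Series height on IV ran from 3.00 to 95.1, with a median of 5.84 (quartiles 4.02 and 11.03). Elsewhere the median was 5.34 (3.75 and 9.18) and the highest was 195. The 95th percentile was 29.6 on IV and 28.3 elsewhere in the series list. The order was the reverse in both replicate lists, with 20.8 on IV and 24.0 elsewhere in replicate 1. In replicate 2 it was 20.6 on IV and 25.1 elsewhere. In replicate 1 the median height was 5.30 on IV and 5.10 elsewhere, and in replicate 2 it was 6.03 and 5.12. The IV median was above the pooled value for the rest in each list, but in replicate 1 the medians on II (5.35) and III (5.51) were higher. The highest replicate peaks on IV, 33.7 and 31.9, were well under the highest elsewhere, 222 and 251, both on I. They were nearer to the lowest chromosome maximum elsewhere, 42.5 on II in replicate 1 and 44.1 on V in replicate 2. In the series list the highest peak on IV was above those on I (73.4), II (87.9) and V (91.7). It was below those on III (140) and X (195).

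Median series width was 440 bp on IV (quartiles 323 and 601) and 388 bp elsewhere (270 and 570). Replicate 1 gave 429 against 397 bp and replicate 2 gave 458 against 391 bp. In replicate 1 the median on X, 456 bp, was above that on IV. Higher peaks tended to be wider, with a Spearman's rho of 0.427 over the 293 series peaks on IV and 0.580 over the 2713 elsewhere. Without the wide peaks of IV described below, the value there was 0.410 over 290 peaks. Height and width come from the same reads of the same peak, so this is a description only.

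The strongest sites of at most 3 kb form a short list. Of the peaks on IV found in both replicate lists, the 20 highest are named by position. Their series heights ran from 95.1 down to 26.3, and the next site, outside the list, stood at 24.9. In the replicate lists they ran from 6.37 to 33.7 and from 6.23 to 31.9. By segment, 7 lay on the left, 3 in the centre and 10 on the right, whereas the right segment held the fewest peaks when every height is counted. The central count leaves out the wide peaks described below. These all lay in the central segment and ranked 5, 7 and 20 on IV in the series list.

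The highest site, IV 14032795 to 14034538 (1744 bp), had a series height of 95.1, with 33.7 in replicate 1 and 31.9 in replicate 2. It ranked first on IV in every list, but 14 in the whole series list, 38 in replicate 1 and 39 in replicate 2. The second, IV 2601896 to 2602844 (949 bp), had 64.1 there, 27.1 in replicate 1 and 31.1 in replicate 2. It too kept its place as second on IV in all lists. A smaller peak lay 1785 bp to its left, at 2599596 to 2600110, with 29.4 in the series list and 10.02 and 10.1 in the replicates.

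The third site, IV 10935016 to 10937400 (2385 bp), reached 54.0 in the series list but 15.4 and 17.4 in the replicates. It stood eighth on IV in replicate 1 and sixth in replicate 2. The site at 2219267 to 2219907 (641 bp) had 49.5 in the series list and 21.1 and 25.2 in replicates 1 and 2. The site at 4749760 to 4750280 (521 bp) had 48.3, 18.8 and 20.98. Both of these narrow sites, in the left segment, were higher in each replicate than the wider site at 10935016, though lower in the series list.

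The site at 8431477 to 8433216 (1740 bp) had 43.9 in the series list and 10.6 and 12.6 in replicates 1 and 2. It lies at the right edge of the long stretch that holds no replicate 1 peak. The site at 14464000 to 14464411 (412 bp) had 33.9, 17.5 and 11.1. At 17278187 to 17278906 (720 bp), near the right end, the heights were 31.8, 14.4 and 10.2. From here on the series heights fell slowly, from 31.8 to 26.3 at the last of the 20.

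The replicates differed most at IV 654686 to 655270 (585 bp), which had 31.5 in the series list and 15.4 and 7.16 in replicates 1 and 2. Its log2 ratio of replicate 1 to replicate 2 was 1.10, against −0.55 at the other extreme of the 20 sites. At 1094101 to 1094539 (439 bp) the replicates were close, at 11.9 and 11.2, with 30.8 in the series list. Replicate 1 was the higher at 8 sites and replicate 2 at 12, so neither list was higher throughout.

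A close pair lay in the right segment, where 642 bp separated the peak at 15471345 to 15471748 from that at 15472391 to 15472717. The left member had 30.2 in the series list and 13.1 and 10.1 in replicates 1 and 2. The right member had 27.2, 10.4 and 11.5. The higher member of the pair was the left one in replicate 1 and in the series list, and the right one in replicate 2. The site at 3050230 to 3051155 (926 bp) had 30.2 in the series list, with 9.87 and 12.9 in the replicates.

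The right segment held further sites with series heights between 27.2 and 29.8. The widest, 14612227 to 14614759 (2533 bp), had 29.8 in the series list and 7.17 and 10.5 in replicates 1 and 2. Its replicate peaks were centred 882 and 584 bp to the right of the series centre, the largest offsets among the 20 sites in both lists. At 15646374 to 15646928 the heights were 29.1, 7.91 and 11.5, and at 17249562 to 17250062 they were 28.9, 9.77 and 12.1. The site at 15570503 to 15571360 had 28.05, 9.46 and 10.2, and that at 13240473 to 13240993 had 27.2, 13.0 and 8.81. The last of the 20 lay in the central segment, at IV 10251920 to 10254003 (2084 bp). It had 26.3 in the series list but only 6.37 and 6.23 in the replicates, where it ranked 481 and 474.

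Across the 20 sites, series and replicate peaks were centred close together. The median distance of the replicate centre from the series centre was 14 bp in replicate 1 and 27.3 bp in replicate 2. Each site overlapped exactly 1 peak in each replicate list. The series height exceeded the sum of the replicate heights at all 20 sites, with ratios from 1.07 to 2.09. These ratios compare reported scores and not occupancy. The 5 sites wider than 1500 bp had ratios from 1.45 to 2.09, and the 15 narrower ones from 1.07 to 1.50. The width of 1500 bp was chosen after the values were seen. Over all peaks found in the 3 lists, Spearman's rho between this ratio and series width was 0.272 on IV (n = 55), 0.365 there without the wide peaks (n = 52), and 0.0323 elsewhere (n = 799), a description only.

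**Figure D3:**
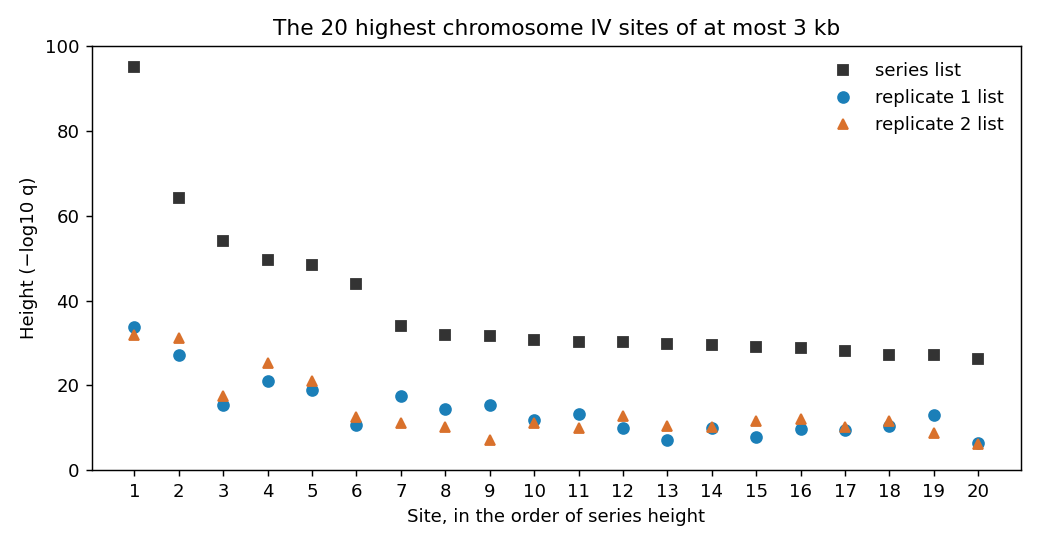
Height, as −log10 q (vertical axis), of the 20 highest sites of at most 3 kb on chromosome IV, in order of series height (horizontal axis), with 1 point for each list. The first site stands at 95.1 in the series list, and replicate points lie between 6.23 and 33.7.

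Separate from these sites, 3 wide peaks lay side by side in the central segment. Peaks over 3 kb made up 0.466% of the series list (14 of 3006), and these 3 were the only ones on IV. The left peak, IV 9048087 to 9057102 (9016 bp), had a height of 46.9 in the series list and 24.1 and 15.8 in replicates 1 and 2. The middle peak, 9062407 to 9066128 (3722 bp), had 27.5, 20.7 and 19.8. The right peak, 9067399 to 9078971 (11573 bp), had 48.99, 15.2 and 7.70. The right peak was thus the highest of the wide peaks in the series list and the lowest in both replicates. It was also the widest peak of any chromosome in each of the 3 lists. The region was singled out for its width, so width and place there are a description.

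Most of their edges in the replicate lists lay within 30 bp of those in the series list. In replicate 1 all 6 edges lay 0 to 30 bp from those of the series list. In replicate 2, 5 of 6 edges lay 3 to 14 bp away, and the left edge of the left peak lay 1648 bp to the right. The gaps between the peaks were 5304 and 1270 bp in the series list, 5315 and 1276 bp in replicate 1, and 5310 and 1287 bp in replicate 2.

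The heights of the wide peaks carried over unevenly between the lists. The series height divided by the summed replicate heights was 1.17 for the left, 0.678 for the middle and 2.14 for the right peak. The ratio of the middle peak was the lowest of the 55 peaks on IV found in all lists. Replicate 1 was higher than replicate 2 at each wide peak, by a log2 ratio of 0.61, 0.06 and 0.98. The replicate mean was 19.95 ± 5.86 for the left, 20.2 ± 0.604 for the middle and 11.5 ± 5.31 for the right peak (SD, n = 2).

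No other peak was near the region. The closest series peaks ended 72778 bp to the left and began 117813 bp to the right, and the nearest replicate peaks were at least 359963 bp away. The wide peaks covered 24311 bp and made up 14.1% of all series peak length on IV, and 39.8% and 39.5% in the replicate lists. Without them, series peaks covered 0.852% of IV, and with them 0.992%, against 1.54% of the other chromosomes. In the gene table nhr-11 itself (CELE_ZC410.1) is on IV, between the protein-coding genes Y73F4A.1 and mppb-1, and unc-119 is on III. The table is of another assembly than the peak lists, so the place of nhr-11 relative to the wide peaks was not analysed here.

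**Figure D4:**
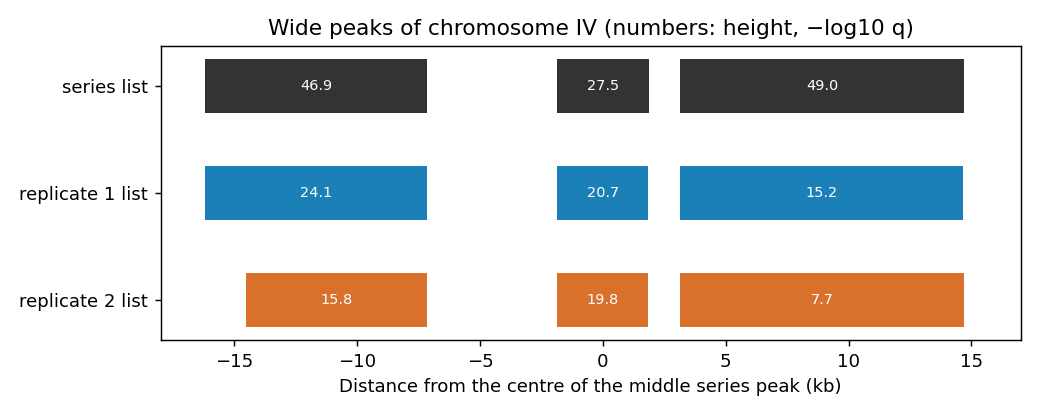
Extent of the wide peaks of chromosome IV in each list, as distance in kb from the centre of the middle series peak (horizontal axis), with the height (−log10 q) printed on each bar. Edges line up across lists except for the left edge of the left peak in replicate 2, and the right peak falls from 49.0 in the series list to 7.7 in replicate 2.

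Support in the replicate lists was limited to the higher peaks of IV. Of the 293 series peaks, 55 overlapped a peak in both replicate lists by at least 1 bp (18.8%, exact interval 14.5 to 23.7%), against 28.4% of all series peaks. A further 20 were found in replicate 1 only (6.83%, against 11.7% of all) and 13 in replicate 2 only (4.44%, against 9.38%). The remaining 205 were found in neither (69.97%, 64.4 to 75.2%), against 50.5% of all. The share found in both was 25.8% on I and 28.3 to 31.6% on the other 4 chromosomes. These shares were not tested against each other, because peaks of a list are not replicates.

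Up to a series height of 20, the share of peaks with replicate support was lower on IV than over all peaks of equal height. This difference was not tested, and equal series height did not mean equal replicate height. Among peaks found in all lists, the median ratio of series height to summed replicate heights was 1.47 on IV and 1.03 elsewhere. Of the 120 peaks on IV with heights from 3 to 5, 0 were found in either list (exact upper limit 3.03%). Of all series peaks of that height, 10.6% were found in at least 1 and 0.294% in both. Of the 91 with heights from 5 to 10, 13 were found in at least 1 list (14.3%, 7.83 to 23.2%), against 69.2% of all, and 3 in both, against 22.1%. Of the 53 with heights from 10 to 20, 46 were found in at least 1 (86.8%, 74.7 to 94.5%), against 98.1% of all, and 23 in both (43.4%, 29.8 to 57.7%), against 87.6%. All peaks on IV with a height of 20 or more were found in both (15 from 20 to 30 and 14 above), as were 100% of series peaks there. The lowest series height with any replicate support was 7.12 on IV and 3.19 elsewhere.

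**Figure D5:**
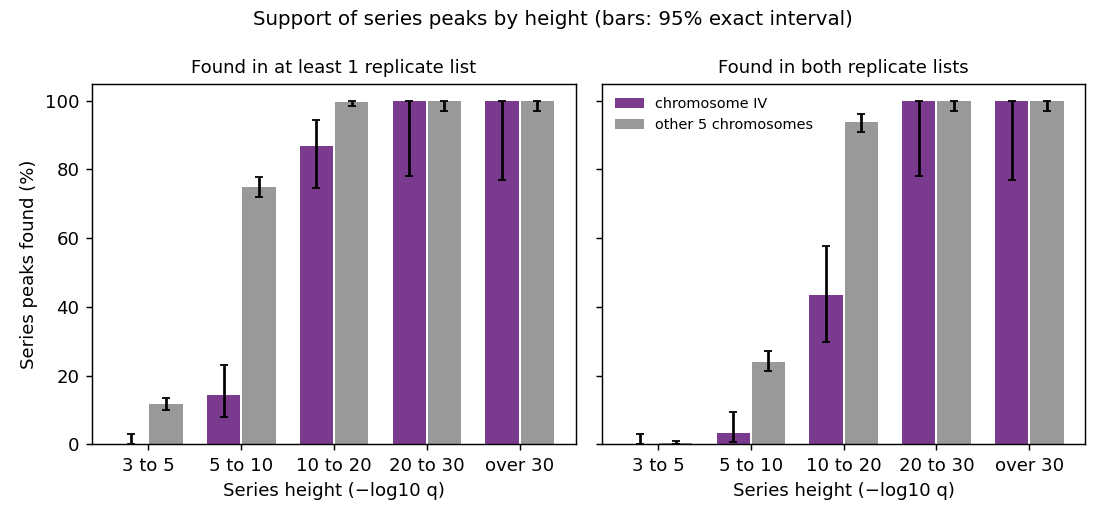
Share of series peaks (vertical axis, %) found in at least 1 replicate list (left) and in both (right), by series height (horizontal axis, −log10 q), for chromosome IV and the other 5 chromosomes, with exact 95% intervals. From 5 to 10 the share found in at least 1 list is 14.3% on IV and 75.03% elsewhere, and above 20 all are found in both.

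The boundary between found and not found was not sharp, as some peaks picked after their values were seen show. The highest series peak on IV without replicate support, 3160632 to 3161304 (673 bp), had a height of 11.9. The highest found in only 1 list, 16491236 to 16492694 (1459 bp), had 17.9 and was found in replicate 2. At the other end, the lowest peak found in both, 16845343 to 16845611 (269 bp), had 8.19. The median series height was 22.3 over the 55 peaks with support in both lists. It was 11.3 and 10.3 with support from replicate 1 or replicate 2 alone, and 4.64 without support. The corresponding median widths were 515 bp with support in both and 387 bp without. By segment, 18.5% of left, 17.3% of central and 21.1% of right peaks were found in both, with intervals that overlapped widely.

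Seen from the replicate lists, peaks on IV repeated about as often as others. Of the 75 replicate 1 peaks on IV, 55 overlapped a replicate 2 peak (73.3%, 61.9 to 82.9%), against 69.8% of all replicate 1 peaks. Of the 68 replicate 2 peaks, 55 overlapped a replicate 1 peak (80.9%, 69.5 to 89.4%), against 73.7% of all. Every replicate peak on IV had a series counterpart, 75 of 75 and 68 of 68, against 97.4% and 97% of all.

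Over the 55 peaks found in all lists, the replicates gave similar heights. Replicate 1 over replicate 2 had a median log2 ratio of −0.02 with an SD of 0.49 over peaks, and replicate 1 was the higher at 26. Spearman's rho between the replicate heights was 0.821 on IV (n = 55) and 0.794 elsewhere (n = 799), a description over peaks of the same 2 libraries. The series height exceeded the summed replicate heights at 52 of the 55. The exceptions, also named after their values were seen, were the middle wide peak, the peak at 4727935 to 4728191, with a ratio of 0.941, and that at 16845343, with 0.998. Elsewhere the median ratio was 1.03 and 36.7% of peaks had a ratio below 1. On I the median was 1.15 and 5.26% had a ratio below 1. The median ratio was 1.41 in the left, 1.65 in the central and 1.40 in the right segment of IV, and leaving out the wide peaks changed the IV median from 1.47 to 1.48.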

How the data were processed

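Peaks were called by the authors with PeakSeq on WormBase WS220, per the file headers and source column. Not given in the sources used here are the aligner, the PeakSeq version, the use of the input and any pooling for the series list. Each peak carries a score deposited by the authors, all below 0.001, which was read here as a q-value. Score times rank never fell with rank, but p-values in rank order would also show this, so it does not decide the reading. Rank numbers were lacking for 12 series, 3 replicate 1 and 1 replicate 2 peaks, whose chromosome is unknown; they were not analysed here.

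Heights (−log10 q), overlaps (1 bp or more), 500 kb windows by peak centre and 3 segments of equal length were computed here. Where several peaks overlapped, the lowest q was used. Chromosome length was the last peak end in any list. Replicate densities were compared by an exact permutation test over lists. No test was made over peaks. The overlap code was tested on simulated lists. Chromosome IV, its wide region and the comparisons were chosen with earlier results of these data known. Named peaks are the 20 highest of at most 3 kb found in both replicates, the wide peaks, and the highest peak without support; 3 others, at the edges of support or with a ratio below 1, were picked after their values were seen. Genes were not assigned to peaks, since the gene table is of WBcel235. Intervals came from SciPy 1.17.1, tables from pandas 2.3.3 with NumPy 2.4.6, and plots from matplotlib 3.10.9, under Python 3.11.15. Alternatives covered the list, the threshold, the overlap rule, the centre and the wide peaks.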

Additional observations from a re-analysis of the deposited data

How the results depend on the processing

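Of 27 alternatives, 19 left the result as it was and 8 moved the value; 0 reversed a direction. Density was judged by direction where both replicate lists entered and by the replicate SD where 1 list did. Other values were judged by the replicate SD or the exact interval. The density ratio of IV to elsewhere, 0.296 over the replicate lists, was 0.512 in the series list and 0.287 to 0.304 with a replicate left out. The central share was 51.2% for the central 50% of length, by construction, and 30.9 to 36% in single replicate lists. The share found in both replicates was 31.8% at heights of at least 5 and 23.2 to 25.6% when a replicate list was left out and support in the other sufficed, again by construction. Median height was 5.30 to 6.03 in single replicate lists. The wide peaks made up 39.5 to 39.8% of peak length in single replicate lists, which held fewer other peaks, and 19.3% came from peaks over 2 kb in the series list. The ratio per protein-coding gene, 0.317, was added after the data were seen. No paired analysis was possible because the inputs, which share replicate numbers with the ChIP libraries, had no values; the density test swaps values of the same list and pairs no samples. Without read numbers, the limit that depth sets on weak peaks cannot be given.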
